A study of Mus musculus with 9 samples.

Results

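A list of 49 genes of mitosis was followed through 3 stages of mouse ovarian surface epithelial (MOSE) cells, a cell series from C57BL6 mice that transformed spontaneously in culture. The list was given as gene symbols covering the spindle checkpoint, the kinetochore, condensin and the machinery around them, and a gene counted as measured where a probe set named it alone. Of the 49, 48 were measured, all 48 passed the filter on dim signals, and they stood among 7952 tested genes of 18194 named on the array. Ccnb1 was not analysed here. The total RNA of each culture was hybridised to an Affymetrix Mouse Genome 430 2.0 array. The 3 stages were MOSE-E (early, described as non-malignant, passages 13, 14 and 15), MOSE-I (intermediate, described as pre-invasive, passages 63, 71 and 73) and MOSE-L (late, described as malignant and invasive, passages 136, 142 and 143), with 3 arrays each numbered in that order. The labels name no treatment for any stage, and all 3 grew in the same serum-containing medium and descend from 1 culture series, so stage and passage number cannot be told apart.

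Cells prepare for mitosis by building a set of proteins, many of which are made late in each cell cycle and some of which are destroyed at its end. Kinases and cyclins start the process, condensin compacts the chromosomes, the kinetochore couples them to the spindle, and the spindle assembly checkpoint holds back the anaphase-promoting complex until every chromosome is attached. The transcripts of these proteins peak in G2 and M phase, and their summed level in a culture is widely read as a measure of dividing cells. In RNA from a whole culture, fewer cells in mitosis and less RNA per cell cannot be told apart. The authors refer to an earlier report of faster growth in MOSE-L cells, and the labels give no growth rate for these cultures.

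Signals are linear values that the authors scaled to a common trimmed mean on each array. A change is given as the difference between stages of log2(signal + 50). A gene was called higher or lower where its change reached 1 on that scale and limma's adjusted p was 0.05 or less. The arrays within a stage correlated at 0.939 to 0.986 in MOSE-E and MOSE-I and at 0.889 to 0.934 in MOSE-L, where replicate 3 gave the lower values. That array also had an actin 3′ to 5′ probe ratio of 1.83, against 1.12 to 1.45 on the other 8 arrays, while its Gapdh ratio of 0.727 lay beside the 0.735 to 0.810 of the others. The part of RNA quality in the results was not tested. Of 12 markers of ovarian surface epithelium, 9 were tested, and the signal summed over all 12 ran from 71281 to 73691 at the early, 53172 to 67112 at the intermediate and 45679 to 65428 at the late stage. Of the 9, 5 were called lower in MOSE-L and 0 higher. Mean signals of Krt7 were 3328 in MOSE-E and 129 in MOSE-L, while Krt18 (10750 and 8680) and Upk3b (14381 and 22155) were not called, and Wt1 (1990 and 3940) was called higher without MOSE-L replicate 3 and not with it. No granulosa cell marker of 6 passed the filter, and the 5 with a probe set summed to 579 to 652, 553 to 741 and 827 to 909 in the 3 stages, so that MOSE-L lay above both earlier ones. The leukocyte marker Ptprc and the endothelial markers Pecam1 and Cdh5 stayed under the filter as well. The leukocyte markers with a probe set (6 of 7), led by Cd14, summed to 1022 to 1131, 1359 to 2252 and 1110.0 to 1822 in the 3 stages. The 6 endothelial markers, of which Esam alone was tested, summed to 1600 to 2005, 519 to 853 and 1236 to 2901, with 2591 for Esam on MOSE-L replicate 3. The part of these cell types in the results was not tested.

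The promoters of the mitotic genes showed a shared feature that their choice did not use. Many genes of G2 and M phase carry a cell cycle homology region (CHR, letters TTTGAA), which the MuvB complex binds, and CCAAT boxes (letters CCAAT), which NF-Y binds. Both were searched on both strands in RefSeq windows of 300 bases (250 before to 50 after the start site, assembly GRCm38.p6). The table held 44 windows for 41 of the 49 genes. A CHR stood in 32 of the 44 windows (72.7%), in 29 genes, against 17.9% of 32851 windows of all genes. A CCAAT box stood in 36 windows (81.8%) against 37.4%, and both motifs in 30 windows (68.2%) against 6.95%. In the last 100 bases of the window a CHR was present in 28 windows (63.6%) against 4.94%. In 1 window the matches shared a base. These matches are a description of letters and not of binding.

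The stretches from 150 bases before to 30 bases after the start site are shown for 4 genes that were called lower in MOSE-L with and without replicate 3, and for Pttg1, the 1 gene that was called higher. They read 5′ to 3′ on the gene's strand, and capitals mark a CHR (TTTGAA or TTCAAA) or a CCAAT box (CCAAT or ATTGG).
Cdca8 (chr4:124936888-124937067, minus strand): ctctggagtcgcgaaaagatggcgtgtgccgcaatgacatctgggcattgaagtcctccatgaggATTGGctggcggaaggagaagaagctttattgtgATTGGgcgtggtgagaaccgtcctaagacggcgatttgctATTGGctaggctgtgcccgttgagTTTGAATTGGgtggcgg
Cdc20 (chr4:118437314-118437493, minus strand): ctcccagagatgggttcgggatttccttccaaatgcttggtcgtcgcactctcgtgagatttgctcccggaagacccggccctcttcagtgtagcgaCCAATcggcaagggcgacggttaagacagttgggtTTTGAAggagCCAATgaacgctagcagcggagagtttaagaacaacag
Ube2c (chr2:164769779-164769958, plus strand): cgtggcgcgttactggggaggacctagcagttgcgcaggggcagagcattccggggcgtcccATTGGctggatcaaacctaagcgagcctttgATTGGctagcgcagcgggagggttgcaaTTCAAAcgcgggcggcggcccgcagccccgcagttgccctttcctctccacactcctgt
Spc25 (chr2:69206184-69206363, minus strand): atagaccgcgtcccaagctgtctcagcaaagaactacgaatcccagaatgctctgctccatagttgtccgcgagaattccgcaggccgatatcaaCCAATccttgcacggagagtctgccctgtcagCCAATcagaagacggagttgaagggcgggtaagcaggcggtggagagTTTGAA
Pttg1 (chr11:43425952-43426131, minus strand): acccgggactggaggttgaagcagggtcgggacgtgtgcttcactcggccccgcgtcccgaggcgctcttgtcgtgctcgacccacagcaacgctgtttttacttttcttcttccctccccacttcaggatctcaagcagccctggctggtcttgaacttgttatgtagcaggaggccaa
The first base of the CHR lay at position 14 after the start site in Cdca8 and 25 in Spc25, and at -18 in Cdc20 and -29 in Ube2c. The Pttg1 window held neither motif. Nor did that of Birc5, the gene with the largest fall, and the window of Cenpe, also called lower with and without replicate 3, held a CCAAT box and no CHR. Of the 29 genes with a CHR, 22 were called lower between MOSE-E and MOSE-L, with a median change of -1.58. Of the 11 measured genes whose window lacked it, 3 were called lower, with a median of -1.19. Of the 8 genes with no window, 6 were called lower, with a median of -1.21. These counts stand beside 7.49% of all tested genes. Without MOSE-L replicate 3 they were 9 of 29, 2 of 11 and 1 of 8, beside 6.14%, with medians of -0.87, -0.50 and -0.71. The difference between these sets was not tested.

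**Figure D1:**
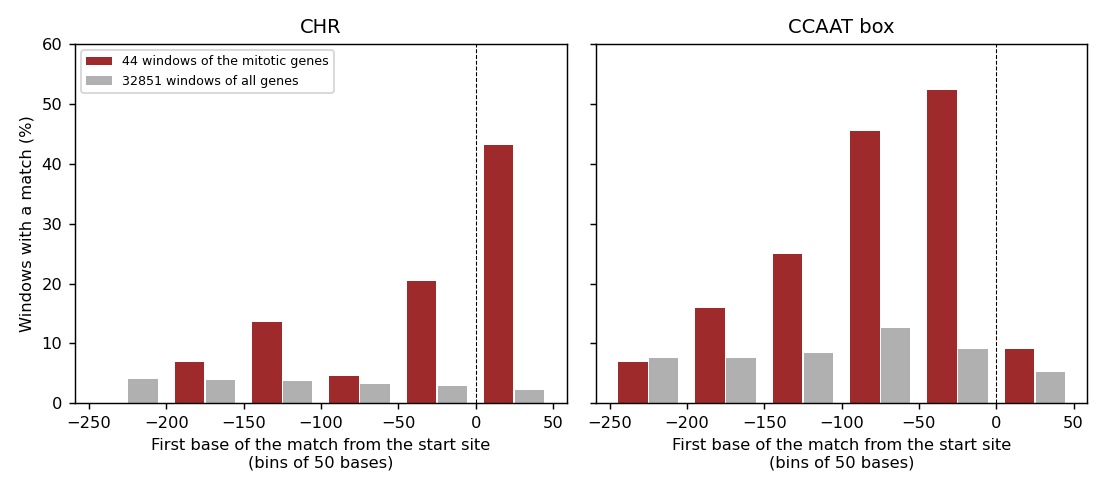
Share of promoter windows (%) with a CHR (left) or a CCAAT box (right) whose first base fell in each 50-base bin around the start site, for the 44 windows of the mitotic genes (red) and all 32851 windows (grey). In the mitotic genes the CHR share was highest just after the start site, at 43.2% against 2.25%, and the CCAAT share was highest in the 50 bases before it, at 52.3% against 9.03%.

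Between MOSE-E and MOSE-L most of the mitotic genes were called lower. Of the 48 measured genes, 31 were called lower, beside 7.49% of all tested genes, and 1, Pttg1, was called higher, beside 8.11%. The change was negative for 47 of the 48 and its median was -1.44, against 0.03 over all tested genes, with a range from -2.41 for Birc5 to 1.03 for Pttg1. In 37 genes all 3 MOSE-L arrays lay below all 3 MOSE-E arrays, as they did in 21.7% of all tested genes. The MOSE-L arrays differed among themselves. The size of the fall depended on MOSE-L replicate 3, and the number of calls depended on single arrays of both stages. Without MOSE-L replicate 3, 12 genes were called lower, beside 6.14% of the genes then tested, and the median change was -0.75. Without MOSE-E replicate 1 the count was 14, beside 7.22%. Without MOSE-E replicate 2 or replicate 3 it was 3 of 48 (6.25%), beside 5.37% and 4.95%, which is near the share of all genes.

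**Figure D2:**
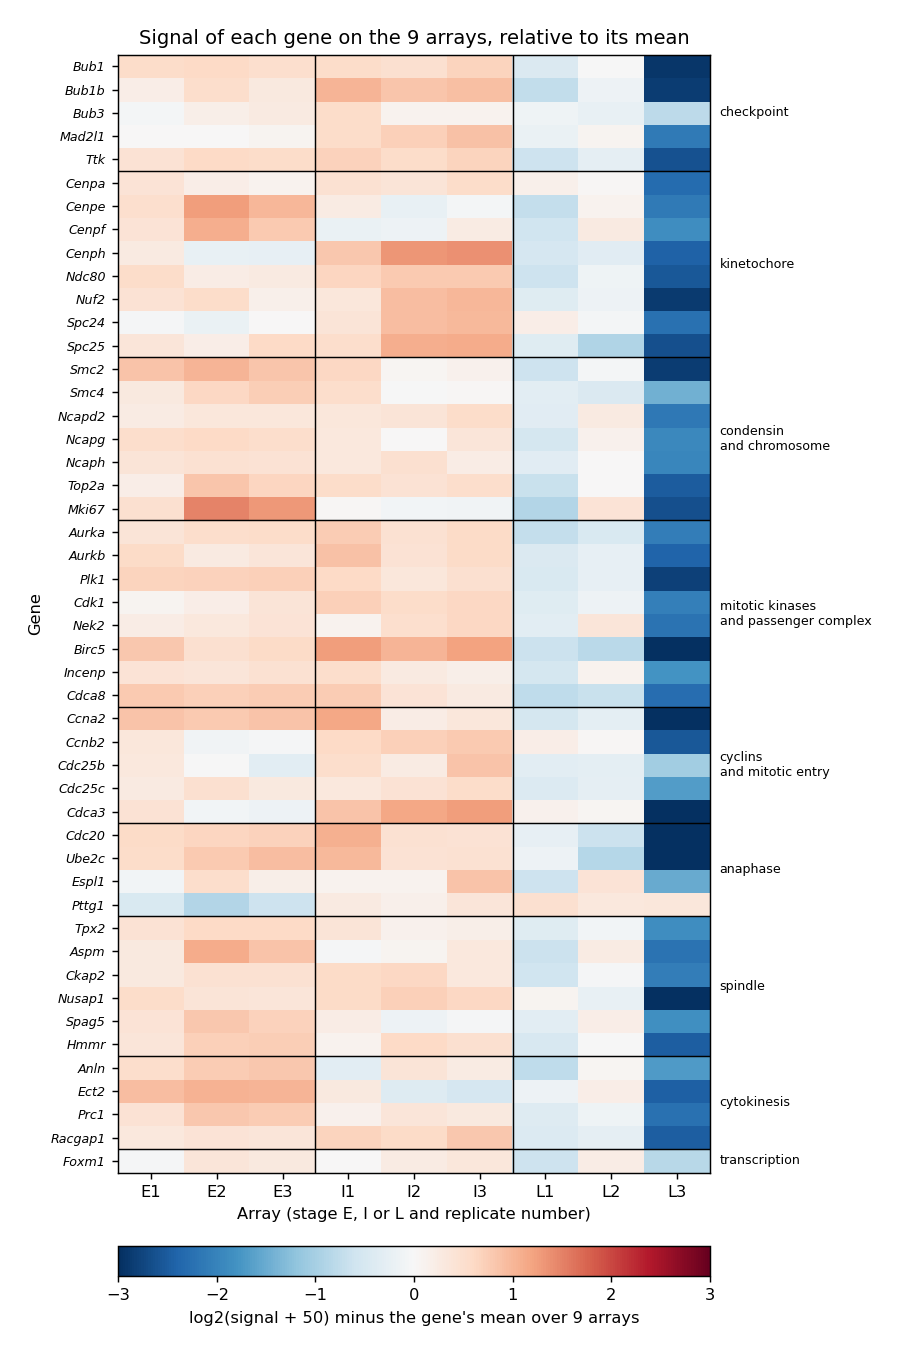
Heat map of the 48 measured genes (rows, grouped by role) on the 9 arrays (columns, E1 to L3 for stage and replicate), coloured by log2(signal + 50) minus the gene's mean over the 9 arrays. MOSE-L replicate 3 had the lowest signal of the 9 arrays for 47 of the 48 genes, and Pttg1 was the exception.

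The third MOSE-L array, from passage 143, gave the lowest signal of all 9 arrays for 47 of the 48 genes, beside 22.9% of all tested genes. For 43 of the 48 its signal was under 50% of each of the other 2 MOSE-L arrays, beside 4.09% of all tested genes. Its median over the mitotic genes was 20.2% of the mean of MOSE-L replicates 1 and 2, against 97.4% over all tested genes, and it reached from 6.34% for Cdca3 to 96.1% for Pttg1. The coefficient of variation over the 3 arrays had a median of 11.0% for MOSE-E, 12.9% for MOSE-I and 67.6% for MOSE-L. The first 2 MOSE-L arrays still lay below MOSE-E. Their mean was 58.9% of the MOSE-E mean at the median gene, against 102% over all tested genes, and both arrays lay below all MOSE-E arrays for 37 of the 48 genes, beside 25.6% of all tested genes. Without the third array, 31 genes were lower by the adjusted p (at most 0.05) alone. The share of all genes at that looser criterion was 13.0% with every array and is not given without the third. Of the 31, 12 were also lower by at least 1 on the log2 scale, beside 6.14% of the genes then tested. All 12 were among the 31 called with every array: Cenpe, Spc25, Smc2, Mki67, Aurka, Plk1, Birc5, Cdca8, Ccna2, Cdc20, Ube2c and Anln.

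**Figure D3:**
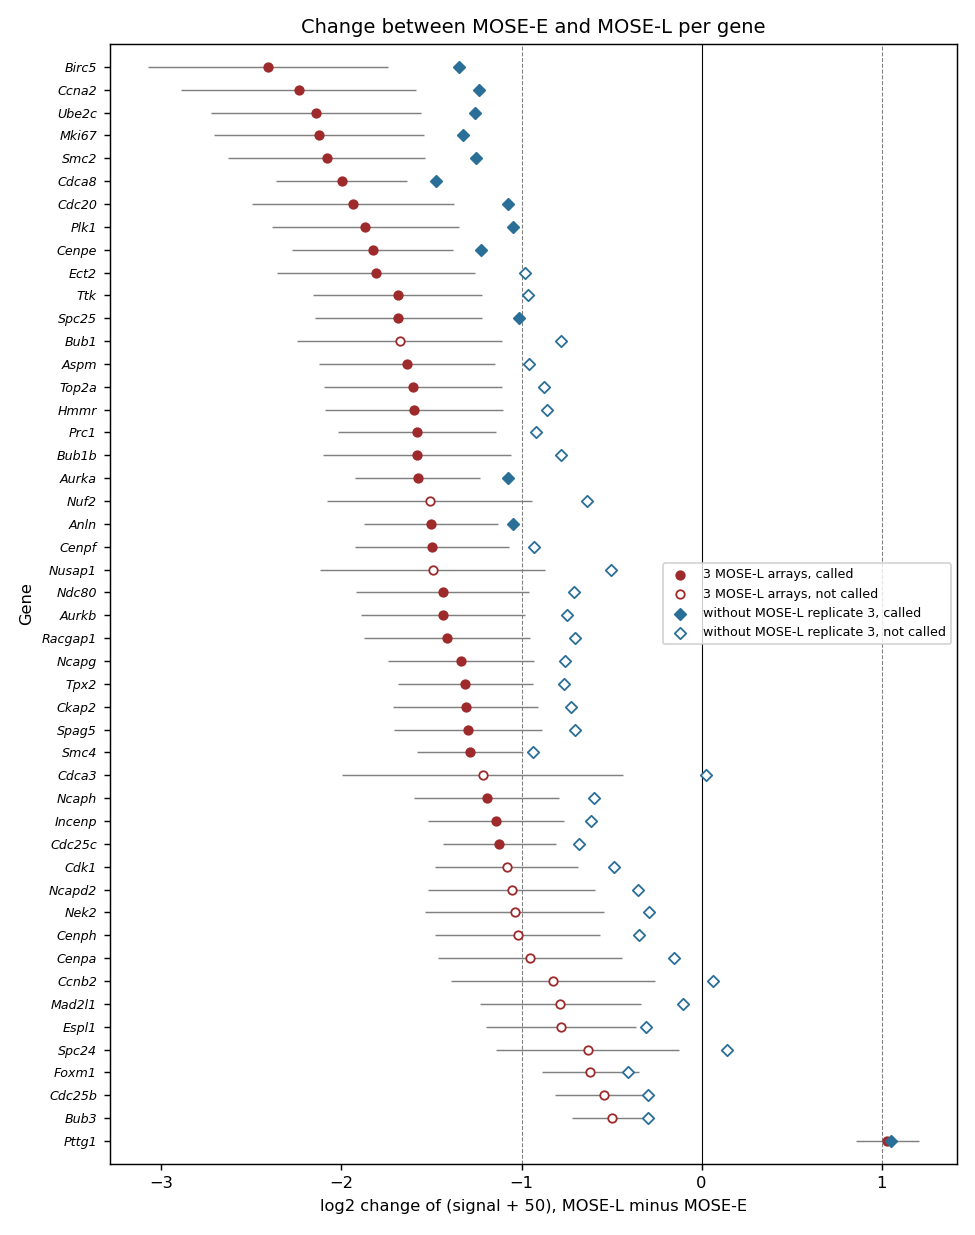
Change of log2(signal + 50) between MOSE-E and MOSE-L for each of the 48 genes, with all 3 MOSE-L arrays (red circles, bars are standard errors) and without MOSE-L replicate 3 (blue diamonds, no error drawn); filled symbols were called and dashed lines mark a change of 1. The median moved from -1.44 to -0.75, and Pttg1 stood at 1.03 and 1.05.

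Of the kinases of mitotic entry, Plk1 and Aurka were called lower, and Cdk1 and Nek2 were not. Polo-like kinase 1 (Plk1), which acts on centrosomes, kinetochores and the midbody, gave signals of 2712, 2762 and 2811 on the MOSE-E arrays, 2557, 2147 and 2367 on the MOSE-I arrays and 1207, 1417 and 198 on those of MOSE-L. The MOSE-L arrays lay below all others. Its mean was 2762 ± 49.3 (SD, n = 3) in MOSE-E and 941 ± 652 in MOSE-L, and the log2 change was -1.87 ± 0.52 (SE, adjusted p = 0.024). Aurora kinase A (Aurka), which matures centrosomes, gave 3258, 3582 and 3650.2 on the MOSE-E arrays, 4201, 3389 and 3679 on the MOSE-I arrays and 1483, 1794 and 543 on those of MOSE-L. It fell by 1.58 ± 0.35 on the log2 scale (SE, adjusted p = 0.0089) and MOSE-L did not overlap the other stages. Cdk1, the kinase that starts mitosis with its cyclins, gave 8460.1, 9203 and 10415 on the MOSE-E arrays, 13092, 11671 and 12157 on the MOSE-I arrays and 6159, 7178 and 1881 on those of MOSE-L. Its change between MOSE-E and MOSE-L of -1.08 ± 0.40 (SE) did not pass the test (adjusted p = 0.066), although its groups did not overlap. Nek2, a kinase of centrosome separation, had MOSE-L signals of 844, 1377 and 189 that overlapped the MOSE-E range of 1244 to 1428.

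The chromosomal passenger complex corrects faulty attachments and then marks the site of cleavage. All 4 of its genes were called lower, beside 7.49% of all tested genes. Birc5 (survivin) gave 7619, 6080.0 and 6524 on the MOSE-E arrays, 10404, 8891 and 10004 on the MOSE-I arrays and 2775, 2456 and 242 on those of MOSE-L, the largest fall among the 48 genes. The change was -2.41 ± 0.67 (SE, adjusted p = 0.024), and -1.35 without the third MOSE-L array (adjusted p = 0.00094). Cdca8 (borealin) gave 4465, 4208 and 4384 on the MOSE-E arrays, 4354, 3422 and 3071 on the MOSE-I arrays and 1486, 1584 and 481 on those of MOSE-L. Its first 2 MOSE-L arrays averaged 35.3% of the MOSE-E mean, the lowest share among the 48. The change was -2.0 ± 0.36 (SE, adjusted p = 0.0036) and -1.47 without the third array. The kinase Aurkb fell by 1.44 ± 0.45 (SE, adjusted p = 0.039) and the scaffold Incenp fell by 1.14 ± 0.38 (SE, adjusted p = 0.046), both on the log2 scale. Without the third array neither reached a change of 1, at -0.75 for Aurkb and -0.61 for Incenp.

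Cyclins and other regulators of entry were mixed. Cyclin A2 (Ccna2) gave 4727, 4481 and 4697 on the MOSE-E arrays, 5875, 3048 and 3291 on the MOSE-I arrays and 1783, 2099 and 198 on those of MOSE-L and fell by 2.24 ± 0.65 on the log2 scale (SE, adjusted p = 0.029). Cyclin B2 (Ccnb2) gave 3631, 2633 and 2768 on the MOSE-E arrays, 4336, 4709 and 4954 on the MOSE-I arrays and 3298, 2935 and 452 on those of MOSE-L. Its first 2 MOSE-L arrays lay within the MOSE-E range, and the change of -0.82 ± 0.57 (SE, adjusted p = 0.30) turned to 0.06 without the third. Cdca3, a trigger of Wee1 destruction at mitotic entry, overlapped in the same way, with 4797, 3337 and 3187 on the MOSE-E arrays, 6478, 7987 and 8474 on the MOSE-I arrays and 3857, 3695 and 239 on those of MOSE-L, and its change of -1.22 ± 0.78 (SE, adjusted p = 0.27) was 0.02 without the third. Of the Cdc25 phosphatases, which activate Cdk1, Cdc25c was called lower at -1.12 ± 0.31 (SE, adjusted p = 0.025), and Cdc25b was not, at -0.54 ± 0.27 (SE, adjusted p = 0.16).

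Of the 5 checkpoint genes, 2 were called lower, beside 7.49% of all tested genes. Without MOSE-L replicate 3, 0 of the 5 were called, beside 6.14% of the genes then tested. The kinase Ttk (Mps1), which starts checkpoint signalling, gave 983, 1102 and 1073 on the MOSE-E arrays, 1188, 1073 and 1161 on the MOSE-I arrays and 449.9, 588 and 75.0 on those of MOSE-L and fell by 1.69 ± 0.47 on the log2 scale (SE, adjusted p = 0.024). Bub1b (BubR1), part of the inhibitory checkpoint complex, fell by 1.58 ± 0.52 (SE, adjusted p = 0.046) with MOSE-L signals of 738, 1134 and 133. Bub1, the kinase that recruits it to kinetochores, had a change of -1.68 ± 0.57 (SE) just outside the threshold (adjusted p = 0.051), and the third MOSE-L array read 147 beside 1041 and 1434. Mad2l1 (Mad2), which binds Cdc20 in the complex, gave 6882, 6852 and 7216 on the MOSE-E arrays, 9981, 11179 and 12539 on the MOSE-I arrays and 5916, 7151 and 1531 on those of MOSE-L. Its first 2 MOSE-L arrays averaged 93.6% of the MOSE-E mean. Bub3, the adaptor that carries Bub1 and Bub1b to kinetochores, varied least between the MOSE-L arrays after Pttg1, with 6769, 7916 and 8445 on the MOSE-E arrays, 10282, 7615 and 7545 on the MOSE-I arrays and 6441, 6036 and 4089 on those of MOSE-L. The change of -0.50 ± 0.22 (SE) did not pass the test (adjusted p = 0.11).

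Among the 8 kinetochore genes, 4 were called lower, beside 7.49% of all tested genes. The NDC80 complex, which grips the spindle microtubules, has 4 subunits, of which Ndc80 (-1.44 ± 0.48, SE, adjusted p = 0.047) and Spc25 (-1.68 ± 0.46, SE, adjusted p = 0.023) were called. Nuf2 (-1.51 ± 0.57, SE, adjusted p = 0.072) and Spc24 (-0.63 ± 0.51, SE, adjusted p = 0.38) were not. Spc25 gave 2379, 2124 and 2799.7 on the MOSE-E arrays, 2651, 3980.0 and 4041 on the MOSE-I arrays and 1423, 964 and 254 on those of MOSE-L. Spc24, its direct partner, gave 1434, 1269 and 1480.4 on the MOSE-E arrays, 1939.7, 2831 and 2907 on the MOSE-I arrays and 1691, 1398 and 269 on those of MOSE-L, so that its first 2 MOSE-L arrays did not lie below MOSE-E. The motor Cenpe and the large coat protein Cenpf were called lower at -1.83 and -1.50. Without MOSE-L replicate 3, 2 of the 8 (Cenpe and Spc25) were called lower, beside 6.14% of the genes then tested. Cenpa, the histone that marks the centromere, was not called (-0.95 ± 0.51, SE, adjusted p = 0.19), with MOSE-L signals of 4147, 3786 and 712.

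Of the 7 condensin and chromosome genes, 6 were called lower, beside 7.49% of all tested genes. Smc2, the ATPase subunit of both condensins, gave 5586, 6229.6 and 5496 on the MOSE-E arrays, 4746, 3183 and 3338 on the MOSE-I arrays and 1954, 2923 and 383 on those of MOSE-L and fell by 2.08 ± 0.55 on the log2 scale (SE, adjusted p = 0.019). Smc4, the other ATPase, fell by 1.29 ± 0.29 (SE, adjusted p = 0.010), and MOSE-L replicate 3 read 1875 beside 4110.4 and 3796, a smaller gap than in most genes. Of the condensin I subunits, Ncapg (-1.34) and Ncaph (-1.19) were called and Ncapd2 was not (-1.05 ± 0.47, SE, adjusted p = 0.12). Top2a, which untangles DNA, fell by 1.60 ± 0.49 (SE, adjusted p = 0.036). Mki67 (Ki-67), which coats mitotic chromosomes and is the common proliferation marker, gave 3268, 6664 and 5839 on the MOSE-E arrays, 2407, 2201 and 2183 on the MOSE-I arrays and 1248, 3108 and 336 on those of MOSE-L. The change was -2.12 ± 0.59 (SE, adjusted p = 0.023), while all MOSE-I arrays already lay under all MOSE-E arrays. Without MOSE-L replicate 3, 2 of the 7 genes (Smc2 and Mki67) were called lower against MOSE-E, beside 6.14% of the genes then tested.

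The genes of mitotic exit held the exception. Cdc20, the activator of the anaphase-promoting complex that the checkpoint restrains, gave 14636, 15169.9 and 15845 on the MOSE-E arrays, 20497, 13428 and 13149.7 on the MOSE-I arrays and 8251, 6252 and 1161 on those of MOSE-L. It fell by 1.94 ± 0.56 on the log2 scale (SE, adjusted p = 0.028) and fell by 1.08 without the third array (adjusted p = 0.0090). Ube2c, the ubiquitin-conjugating enzyme of that complex, gave 8399, 9975 and 10968 in MOSE-E and 5146, 3162 and 598 in MOSE-L cells and fell by 2.14 ± 0.58 (SE, adjusted p = 0.022). Pttg1 (securin), the inhibitor of separase that this complex destroys at anaphase, went the other way. It gave 2494, 1861 and 2219 on the MOSE-E arrays, 4132, 3849.9 and 4429 on the MOSE-I arrays and 4831, 4303 and 4391 on those of MOSE-L. Both later stages lay above every MOSE-E array, and the third MOSE-L array did not stand apart. Pttg1 rose by 1.03 ± 0.17 between MOSE-E and MOSE-L (SE, adjusted p = 0.0024). Its brightest probe set is of the kind that Affymetrix marks as matching more than 1 transcript. The same mark stands on those of other measured genes, among them Cdca8, Bub1b, Prc1 and Spag5, which were called lower. The second Pttg1 probe set, marked as matching transcripts of a single gene, had a change of 0.95 (adjusted p = 0.0091), under the minimum change. Pttg1 lost its call when MOSE-E replicate 2 or MOSE-L replicate 1 was left out. Separase itself (Espl1) was dim, with 424 to 666 in MOSE-E and 125 to 615 in MOSE-L cells, and was not called (-0.78 ± 0.42, SE, adjusted p = 0.19).

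**Figure D4:**
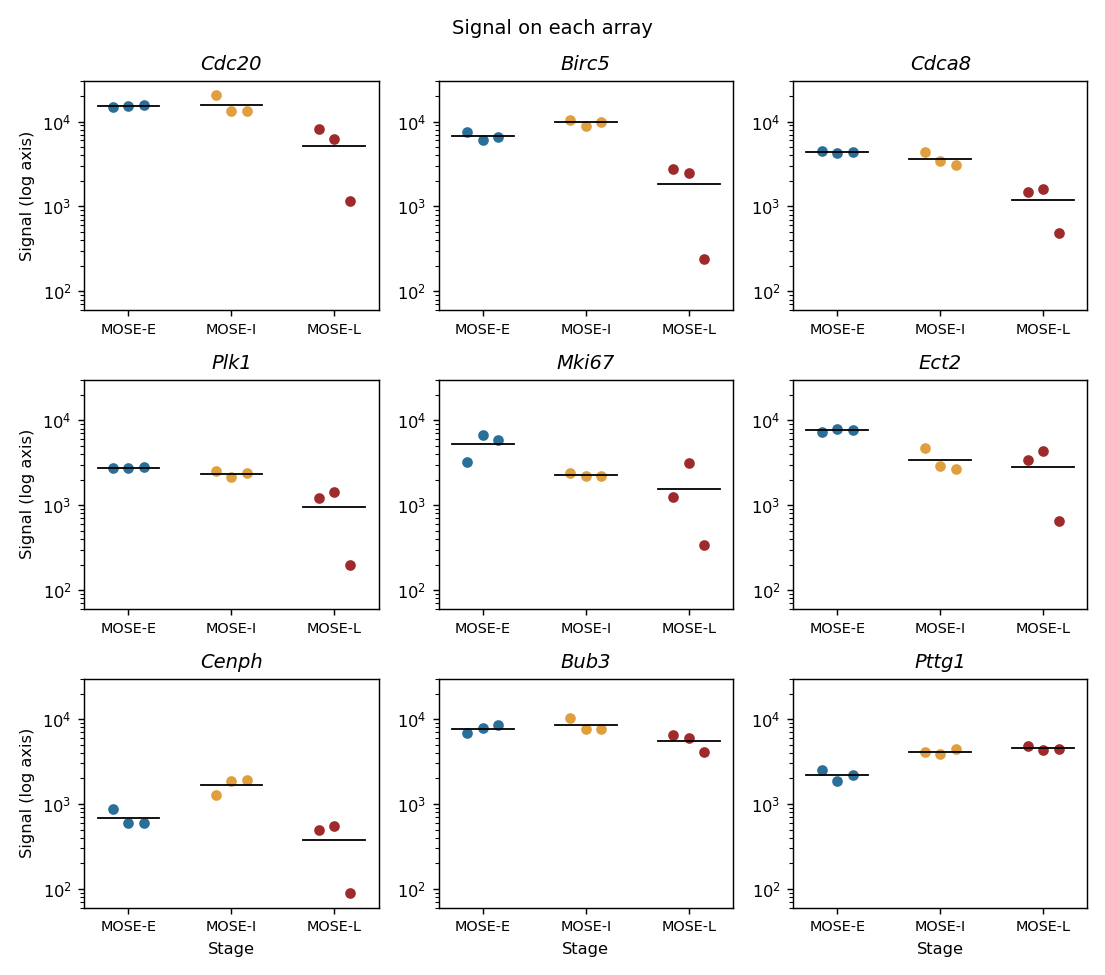
Signal on each array (points, log axis) and the stage mean (line) for 9 of the genes in MOSE-E (blue), MOSE-I (orange) and MOSE-L (red); the points of a stage are replicates 1, 2 and 3 from left to right. The third MOSE-L array lay far below its stage for Cdc20, Birc5, Cdca8, Plk1, Mki67, Ect2 and Cenph, less so for Bub3 (4089 beside 6441 and 6036), and not for Pttg1.

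Spindle and cytokinesis genes were called lower in 9 of 10, beside 7.49% of all tested genes. Without MOSE-L replicate 3 this held for 0 of 6 spindle and 1 of 4 cytokinesis genes, beside 6.14% of the genes then tested. Of the 6 spindle genes, Tpx2 (the activator of Aurora A), Aspm (spindle poles), Ckap2, Spag5 (astrin) and Hmmr had changes from -1.63 to -1.30, and Nusap1, a bundler of microtubules, was not called (-1.49 ± 0.62, SE, adjusted p = 0.099). With every array the 4 cytokinesis genes were all called. Anillin (Anln), the scaffold of the contractile ring, gave 10240.5, 12098 and 12457 on the MOSE-E arrays, 5716, 9306 and 8369 on the MOSE-I arrays and 4154, 7459.6 and 2137 on those of MOSE-L and fell by 1.5 ± 0.37 (SE, adjusted p = 0.015). Its MOSE-E arrays lay above all later arrays, while MOSE-I and MOSE-L overlapped. Ect2, the exchange factor that turns on RhoA at the cleavage site, gave 7222, 7877 and 7753 on the MOSE-E arrays, 4665, 2866 and 2634 on the MOSE-I arrays and 3392, 4340.2 and 645 on those of MOSE-L (change against MOSE-E -1.81 ± 0.55, SE, adjusted p = 0.034). Prc1, which bundles the central spindle, and Racgap1, the partner of Ect2, had changes of -1.58 and -1.42. Foxm1, a transcription factor of this gene group, was not called (-0.62 ± 0.27, SE, adjusted p = 0.11). It gave 523, 701 and 672 on the MOSE-E arrays, 538, 649.9 and 688 on the MOSE-I arrays and 329, 639 and 280.2 on those of MOSE-L.

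No mitotic gene was called between MOSE-E and MOSE-I, where 3.61% of all tested genes were called lower and 2.29% higher. Pttg1 alone reached an adjusted p of at most 0.05 (0.91 ± 0.17, SE, adjusted p = 0.013), 2 genes reached an unadjusted p of at most 0.05, and the methods' t-test with a fold of 2 called 2 lower and 2 higher, beside 4.09% and 3.07% of all genes. Without MOSE-L replicate 3, which enters this comparison through the shared variance, Ect2 and Mki67 were called lower, beside 4.36% of all genes, and Cdca3 and Cenph higher, beside 2.86%. Without MOSE-E replicate 1 Pttg1 was called higher, beside 4.14%. The median change was 0.09 against 0.03 over all tested genes, with 27 positive and 21 negative changes between -1.20 for Ect2 and 1.24 for Cenph. In 12 genes all MOSE-I arrays lay above all MOSE-E arrays, beside 23.4% of all tested genes, and in 11 genes all lay below, beside 17.8%. Both counts lay near the shares of all genes. Those above were Bub1b, Mad2l1, Cenph, Ndc80, Spc24, Cdk1, Birc5, Ccnb2, Cdca3, Pttg1, Nusap1 and Racgap1. Those below were Cenpe, Cenpf, Smc2, Ncapg, Mki67, Plk1, Tpx2, Spag5, Anln, Ect2 and Prc1. The subgroups differed in direction, with medians of 0.55 for cyclins and mitotic entry, 0.39 for the kinetochore, -0.32 for condensin and chromosome genes and -0.50 for cytokinesis. These differences between subgroups were not tested. Within the kinetochore, Cenph (a member of the inner plate) gave 861, 597 and 589 on the MOSE-E arrays, 1271, 1862 and 1902 on the MOSE-I arrays and 487, 548 and 90.5 on those of MOSE-L. Cenpe gave 1329, 2306 and 1909.6, then 1121, 791 and 889, then 546, 1007 and 176.

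**Figure D5:**
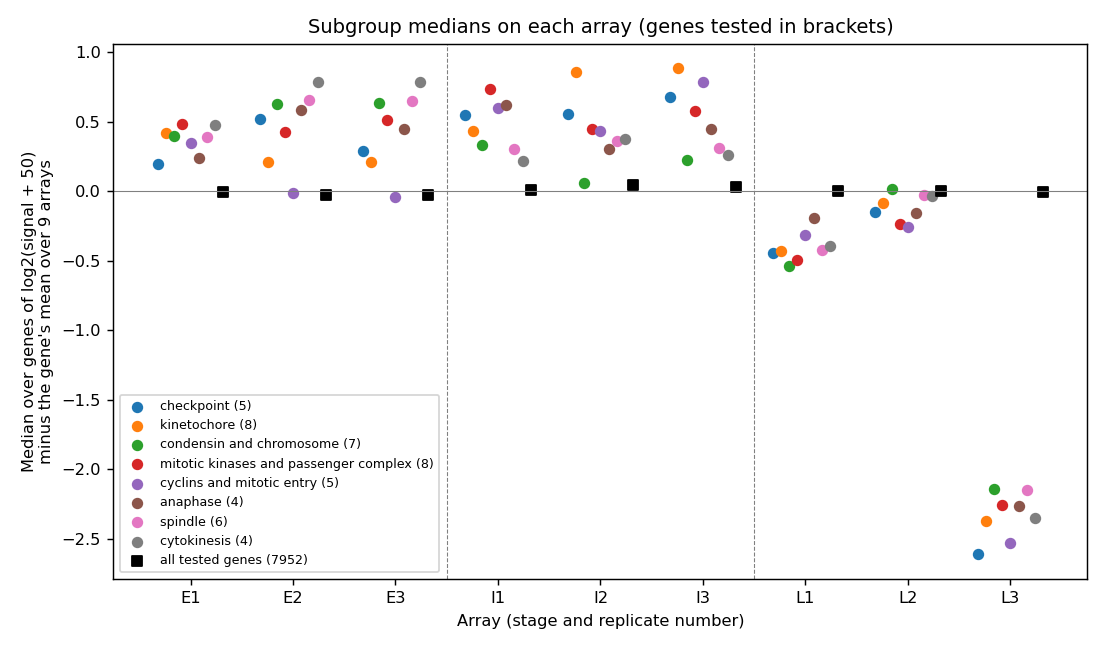
Median over the genes of each subgroup of log2(signal + 50) minus the gene's mean over 9 arrays, per array (E1 to L3), with the number of genes in brackets; black squares are all 7952 tested genes. All 8 subgroups drawn lay between -2.61 and -2.14 on MOSE-L replicate 3 and between -0.54 and 0.02 on the other MOSE-L arrays. Foxm1, which alone formed a transcription subgroup, is not drawn. It read -0.63, 0.23 and -0.83 on MOSE-L replicates 1, 2 and 3.

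The comparison of MOSE-L with MOSE-I shares the MOSE-L arrays with that against MOSE-E. Here 22 genes were called lower, beside 6.04% of all tested genes, and 0 higher, beside 7.38%, with 0 higher also at an unadjusted p of at most 0.05 and by the methods' t-test. The median change was -1.43. All MOSE-L arrays lay below all MOSE-I arrays in 36 genes, beside 23.5% of all tested genes. Without MOSE-L replicate 3 the count was 12, beside 3.87% of the genes then tested, and the median was -0.70. Leaving out MOSE-I replicate 1, 2 or 3 gave 8, 11 and 6, beside 4.76%, 5.27% and 4.04%, and leaving out MOSE-L replicate 2 gave 41, beside 7.01%. In all 16 genes were called lower against both earlier stages: Bub1b, Ttk, Ndc80, Spc25, Top2a, Aurka, Aurkb, Plk1, Birc5, Cdca8, Ccna2, Cdc25c, Cdc20, Ube2c, Ckap2 and Racgap1. A further 15 were called against MOSE-E only, among them 5 condensin and chromosome genes and Ect2, Prc1 and Anln. The 6 called against MOSE-I only were Bub1, Mad2l1, Cenph, Nuf2, Cdk1 and Cdc25b. Cenph showed the largest such gap, at -2.26 ± 0.46 against MOSE-I (SE, adjusted p = 0.0079) and -1.02 ± 0.46 against MOSE-E (SE, adjusted p = 0.12). The shares of all tested genes with these patterns of calls are not given. Without MOSE-L replicate 3 the genes called lower against both earlier stages were Spc25, Aurka, Birc5, Cdca8, Cdc20 and Ube2c.

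Other probe sets of the same genes read alike in sign between MOSE-E and MOSE-L. The 24 genes with more than 1 tested probe set had 34 further ones, all 34 with the sign of the representative between MOSE-E and MOSE-L. Of these, 21 shared its call and 13 were not called where the representative was. These 13 belonged to Aspm, Aurkb, Bub1b, Cdc25c, Ncaph, Pttg1, Racgap1, Smc4 (2), Spag5, Top2a and Tpx2 (2). Of these Tpx2 probe sets, 1 had a change of -0.31, against -1.31 for the representative. The 2 other Foxm1 probe sets had changes of -1.14 and -1.46 without passing the test. Between MOSE-I and MOSE-L the second Top2a probe set changed by 0.21, against -1.56 for the representative. That of Ncapd2 changed by 0.42, against -1.16. Both were dim, with mean signals of 317 and 244.

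Neighbouring groups of genes were read from lists. Their counts between MOSE-E and MOSE-L stand beside 7.49% of all tested genes called lower. Other checkpoint genes were called lower in 3 of 7 (median -1.07), with Trip13, which remodels Mad2, at -1.86. Other kinetochore and centromere genes were lower in 9 of 25 (median -0.90), led by Mis18a, a loader of Cenpa, at -1.76 and by shugoshin (Sgo1) at -1.57. Mitotic kinesins were lower in 4 of 10 (median -1.49), led by Kif2c at -2.03 and Kif23 at -1.97. Other spindle and centrosome genes were lower in 7 of 15 (median -1.28), led by Fam83d at -1.99. The next 2 lists stood nearer to the median of all genes. Cohesin and condensin II genes were lower in 1 of 15 (median -0.08), which is near the share of all genes. The gene called was the acetyltransferase Esco2 at -1.82. Subunits and partners of the anaphase-promoting complex were lower in 2 of 15 (median -0.22), its inhibitor Fbxo5 (Emi1) at -1.77 and its enzyme Ube2s at -1.04. Genes of DNA replication were lower in 10 of 27 (median -1.11), led by Rrm2, which makes deoxyribonucleotides, at -2.27 and cyclin E2 (Ccne2) at -2.11. The replication genes had a median of 0.33 between MOSE-E and MOSE-I and were called lower in 21 of 27 between MOSE-I and MOSE-L, beside 6.04% of all tested genes, and in 8 of 27 without MOSE-L replicate 3, beside 3.87%. Without that array the counts called lower against MOSE-E, beside 6.14% of all genes, were 1 of 7 for other checkpoint genes, 1 of 25 for other kinetochore and centromere genes, 3 of 10 for kinesins, 3 of 15 for other spindle genes, 1 of 15 for cohesin and condensin II genes, 1 of 15 for the anaphase-promoting complex and 3 of 27 for replication genes. The counts of 1 in 25 and 1 in 15 lay near or below the share of all genes.

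Among regulators of transcription of cell cycle genes (MuvB, E2F and NF-Y), 3 of 17 were called lower, beside 7.49% of all tested genes, with a median of -0.45. Without MOSE-L replicate 3 the count was 2 of 17, beside 6.14%. E2f7, a repressor, gave the largest change at -2.36 (adjusted p = 0.011). Mybl2 (B-Myb), the activating partner of MuvB, had means of 581 ± 55.6 (SD, n = 3) for MOSE-E, 569 for MOSE-I and 192 ± 28.3 for MOSE-L and fell by 1.39 on the log2 scale (adjusted p = 0.0016). Its MOSE-L signals were 173, 224 and 177, close together where those of the mitotic genes were spread, and its change without the third array was -1.35. Between MOSE-E and MOSE-I, Cenpm, a kinetochore gene, was called higher, and no other gene of these cell cycle lists was called.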

How the data were processed

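Total RNA of MOSE cells was measured on 9 Affymetrix Mouse Genome 430 2.0 arrays, 3 per stage, labelled as biological replicates of 1 culture series. The authors made the deposited values, linear MAS 5.0 signal intensities scaled to a trimmed mean of 500 on each array. The table held 45101 probe sets, and 64 controls were left out. The 13845 probe sets that exceeded 500 anywhere (7952 genes) were tested as log2(signal + 50) with limma 3.58.1 in R 4.3.3, with 1 mean per stage on all 9 arrays, a variance trend (degrees of freedom 6 residual, 4.90 prior at the median) and Benjamini-Hochberg adjustment over all of them. Scaling hides a shift shared by all genes, and the added 50 understates changes of dim genes. Arrays at 3 per stage limit the precision.

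GEO's platform annotation named 1 gene for 34958 probe sets, several for 932 and none for 9211, and 34754 were matched by gene ID to GRCm38.p6. A gene took its brightest tested probe set naming it alone. All mitotic genes could be named, and of other lists up to 3 called genes with the largest change. The members and lists were chosen with earlier results of these data known. The procedure was tested on simulated data. Alternatives, the methods' t-test among them (signals, a fold of 2), are in the closing section. Summaries and figures used Python 3.11.15.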

Additional observations from a re-analysis of the deposited data

How the results depend on the processing

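Between MOSE-E and MOSE-L the number of mitotic genes called lower was 31. It was 14 with no filter (3.41% of all genes), 6 with only the groups compared (6.41%), 2 at an adjusted p of 0.01 (4.58%) and 1 by the methods' t-test after adjustment (2.02%). The last 2 counts, 4.17% and 2.08% of the 48, were near the share of all genes. Leaving out 1 array gave 3 to 37, the lowest without MOSE-E replicate 2 or 3, and 12 without MOSE-L replicate 3. Leaving out the array farthest from each stage together (MOSE-E replicate 1, MOSE-I replicate 1 and MOSE-L replicate 3, chosen after seeing the data) gave 19 (7.62%). The 1 gene called higher, Pttg1, became 0 with the largest added value tried, with the mean of the probe sets, and in the range of 0 to 1 on leaving out 1 array. Between MOSE-I and MOSE-L the count of 22 became 13 with no filter (2.56% of all genes), 10 with only the groups compared (4.87%), 4 at an adjusted p of 0.01 (2.89%), 0 by the adjusted t-test (0.0503%), 11 without the 3 farthest arrays (4.25%), and 6 to 41 on leaving out 1 array.

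Between MOSE-E and MOSE-I, where 0 genes were called, the counts lower and higher were 2 and 2 with only the groups compared (4.59% and 3.02% of all genes), 3 and 2 with array weights (7.11% and 6.56%), 2 and 2 by the methods' t-test (4.09% and 3.07%), 3 and 4 without the 3 farthest arrays (6.69% and 6.95%), and 0 to 2 each on leaving out 1 array. With no minimum change 1 was higher (5.31%). These counts, at most 4 of 48 (8.33%), were near the share of all genes. The median change of 0.09 was 0.010 with array weights, 0.0124 to 0.105 on leaving out 1 array and -0.0108 without the 3 farthest arrays. The cause of these shifts was not tested.

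The change between MOSE-E and MOSE-L turned positive for 3 genes without MOSE-L replicate 3: leaving out 1 array gave -1.09 to 0.14 for Spc24, -1.31 to 0.06 for Ccnb2 and -1.85 to 0.02 for Cdca3, and leaving out the 3 farthest arrays gave 0.16, 0.20 and 0.21. None of these 3 was called. The median over the 48 genes stayed negative under every alternative run in both comparisons with MOSE-L. With the replicate number as a replicate block, 31 genes were called lower and 1 higher between MOSE-E and MOSE-L and 24 lower between MOSE-I and MOSE-L, and the block changed no call of a single gene between MOSE-E and MOSE-L. Deviations of same-numbered arrays correlated at -0.113 to 0.410, so the numbers were not taken to pair the arrays.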
